A study of Mus musculus with 12 samples.

Results

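The genes described here are 39 interferon-stimulated genes of the mouse outside the OAS family, measured as mRNA in the macrophage-like line J774A.1. They were given as a list of gene symbols, and all 39 were found among the 28977 gene IDs of the deposited table, Ddx58 (Rigi in newer annotation) under its older symbol. In J774A.1, 35 of the 39 were kept for testing, because they reached 1 FPKM (fragment counts scaled for transcript length and library size) in at least 3 of the 12 libraries. The 12 libraries fell into 4 groups of 3, each exposed for 1 h and then returned to full medium for 24 h. The groups were cells left in cell media, cells in HBSS, a buffered salt solution, with no HOCl (0 µM, labelled as the vehicle control), cells in HBSS with HOCl 20µM and cells in HBSS with HOCl 100µM. HOCl is hypochlorous acid, the oxidant that myeloperoxidase of phagocytes makes. All 4 groups are the same unmodified line, and no label tells whether replicates came from independent cultures. The p-values thus cover the scatter of these libraries, which may be technical.

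Type I interferon binds a receptor of the chains IFNAR1 and IFNAR2, whose kinases JAK1 and TYK2 phosphorylate transcription factors of the STAT family. STAT2 and IRF9 are parts of the factor ISGF3, which binds the interferon-stimulated response element in the promoters of the target genes. IRF7, itself a target, raises further interferon, and the other targets sense foreign RNA, block its translation, tag proteins with ISG15 or restrict virus release. Macrophages often keep a low level of this programme without infection.

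Promoter sequence of the members was read from RefSeq windows of the GRCm38.p6 build, from 250 bases before the start site to 50 after it. Of the 39 members, 30 had a window, matched by symbol. The core of the response element was searched on both strands as GAAA, any 2 bases and GAAA again, so that a match on the other strand reads TTTC, 2 bases, TTTC. This core was found in 13 of the 30 members (43.3%), against 3.99% of all 27025 genes with a window. The members with a match were Stat2, Ddx58, Ifih1, Ddx60, Ifit1, Ifit3, Eif2ak2, Isg15, Trim30a, Rsad2, Bst2, Ifi203 and Slfn5. In the bases before the start site alone it was found in 10 of the 30, against 3.46% of genes. A match of these letters is a description of the window, not a measured binding site. The 6 stretches below are shown because these genes differed in level and in behaviour in the libraries. Capitals mark the matches, and each stretch is given 5′ to 3′ on the gene's own strand.
Isg15 (chr4:156200855-156200916, minus strand, bases -98 to -37 from the start site): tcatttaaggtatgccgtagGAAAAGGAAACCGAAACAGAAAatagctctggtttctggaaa
Ifit1 (chr19:34640765-34640833, plus strand, bases -124 to -56): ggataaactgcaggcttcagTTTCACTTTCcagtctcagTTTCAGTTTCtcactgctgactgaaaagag
Bst2 (chr8:71537567-71537622, minus strand, bases -150 to -95): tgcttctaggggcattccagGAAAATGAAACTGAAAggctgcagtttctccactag
Trim30a (chr7:104465200-104465249, minus strand, bases -56 to -7): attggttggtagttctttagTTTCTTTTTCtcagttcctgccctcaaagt
Stat2 (chr10:128270256-128270305, plus strand, bases -242 to -193): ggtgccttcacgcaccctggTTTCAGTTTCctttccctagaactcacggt
Ifi203 (chr1:173942498-173942547, minus strand, bases -55 to -6): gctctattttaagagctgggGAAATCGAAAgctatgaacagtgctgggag
The Isg15 stretch holds 3 matches, each overlapping the next, and the Bst2 stretch 2 that overlap, while the 2 matches of Ifit1 stand apart.

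Depth ran from 17683937 to 21408518 reads per library, recovered from the steps of the low FPKM values. All 10 macrophage markers were present, from Lyz2 at 2019.6 to 2892 FPKM and Cd68 at 771 to 918 down to Mertk at 2.40 to 7.44. Their summed FPKM was 3599 to 3787 in cell media, 3444 to 3756 in HBSS, 3577 to 3764 at 20 µM and 3960 to 4483 at 100 µM, so the 100 µM libraries lay above all the others. Most of that sum was Lyz2, so it does not tell how the other macrophage markers moved. Markers of other cell types stayed below 1 FPKM in every library, except Lck, S100a8 and Cox6a2. Cox6a2 is 1 of the 4 markers listed for plasmacytoid dendritic cells, a cell type known for high interferon output. The 4 summed to 3.93 to 15.1 FPKM in cell media and 1.33 to 3.88 in HBSS. At 20 µM the sum was 1.68 to 2.84 and at 100 µM 0.992 to 1.67. The defining marker Siglech did not pass 0.0167 FPKM, Ccr9 0.0286 and Klk1 0.136, so this sum was mostly Cox6a2. The part of this sum in the results was not tested. Cell media replicates 1 and 2 stood apart: their correlation was 0.988 with one another but 0.946 to 0.971 with the remaining 10 libraries, and ribosomal protein genes made up 12.5% and 12.4% of their FPKM against 7.18% to 8.05%. Differences from the cell media group are therefore also given against cell media replicate 3 alone. In such bulk samples, fewer cells that express a gene and less RNA of it per cell cannot be told apart.

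Per length, the members spanned a wide range of levels in HBSS. Bst2, the tetherin that holds budding virus on the cell surface, was highest at 168, 187 and 175 FPKM. Ifi27l2a, a small protein of unsettled function, followed at 87.0, 99.4 and 86.4, and Ly6e, a surface protein that limits virus entry, at 66.7, 82.4 and 82.1. The HBSS ranges of these 3 genes did not overlap. Lgals3bp, Trim25, Eif2ak2, Samhd1 and Trim30a stood between 18.3 and 63.3 FPKM, and the other kept members had lower means. The 4 members below the limit for testing were Ddx60, Ifit3, Zbp1 and Slfn5, with 0.689 to 0.855, 0.589 to 0.807, 0.251 to 0.399 and 0.162 to 0.206 FPKM in HBSS. In HBSS those of Ifit3 rested on 22 to 28 recovered reads per library, those of Zbp1 on 19 to 28 and those of Slfn5 on 22 to 26. Over all 12 libraries the reads ran from 2 to 28 for Ifit3, 9 to 28 for Zbp1 and 6 to 28 for Slfn5.

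The comparison of HBSS with cell media shows what the members did with the vehicle alone. Here the interferon-stimulated genes stood higher in HBSS almost throughout: 33 of the 35 were higher, against 61.2% of all genes, with a median log2 difference of 0.55 (on log2(FPKM + 1), as for all differences below), against 0.10 over all 12026 kept genes. In 28 of the 35 every HBSS library lay above every cell media library, which 12.7% of all genes did, and 0 lay below, which 8.91% did. Limma called 1 member, Ifi44, where 0.0166% of all genes were called (0.00832% higher and 0.00832% lower). At an unadjusted p below 0.05 there were 29 of the 35 in limma, against 40% of all genes.

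**Figure D1:**
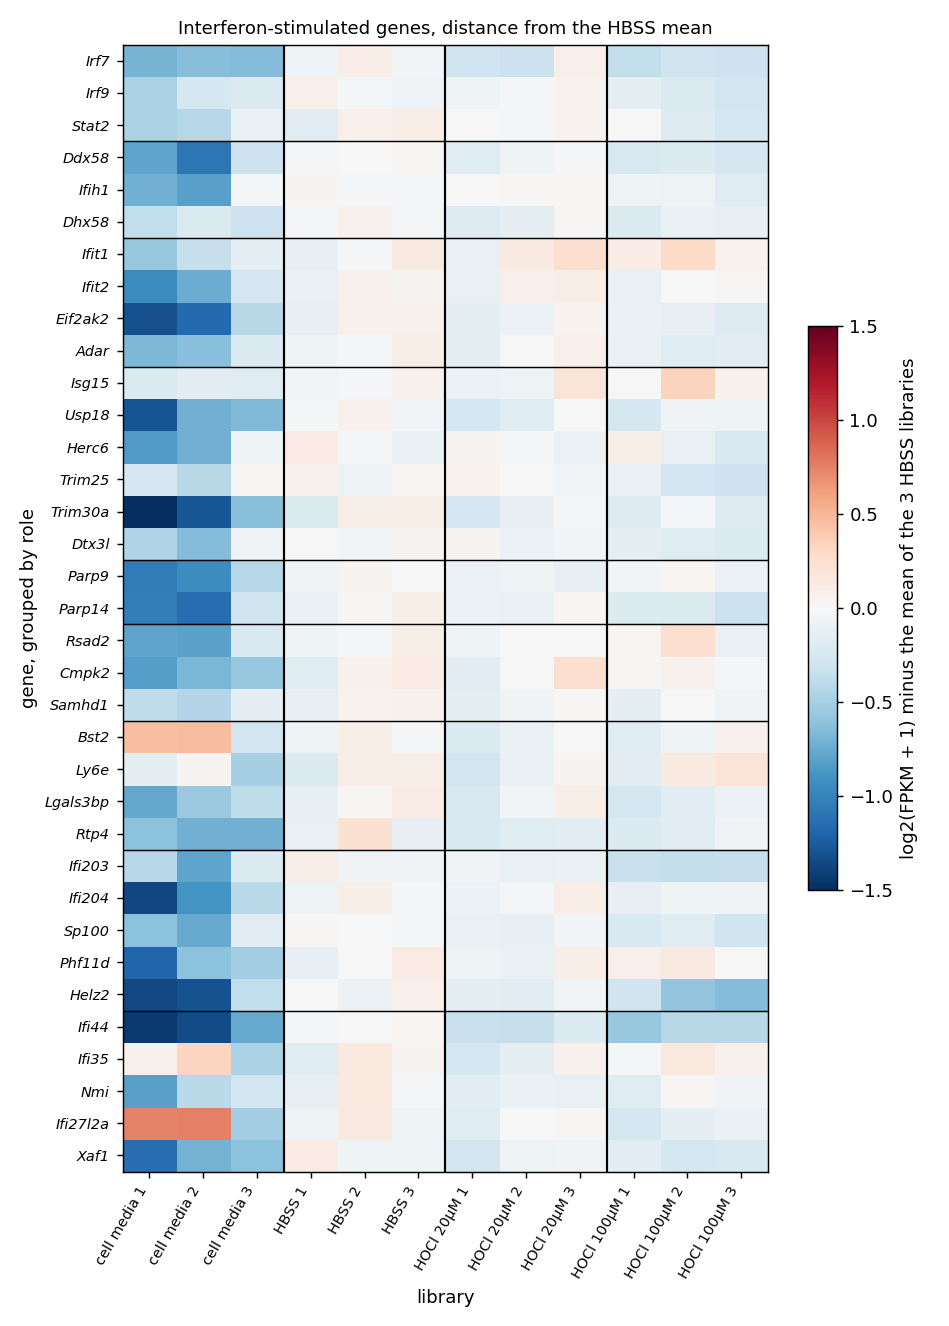
Heat map of the 35 kept genes (rows, grouped by role and separated by lines) in the 12 libraries (columns): colour is log2(FPKM + 1) minus the mean of the 3 HBSS libraries. Blue fills the cell media columns for most genes, mostly palest in cell media replicate 3, while Bst2 and Ifi27l2a are red in cell media replicates 1 and 2 and blue in replicate 3.

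Among the transcription factors, Irf7, the factor that drives interferon genes, stood at 4.45, 4.69 and 4.62 FPKM in cell media and at 7.46, 8.499 and 7.57 in HBSS. The groups did not overlap, the cell media values lay close together, and the log2 difference was 0.66 (SE 0.10, limma adjusted p = 0.0708), and 0.65 (SE 0.15) against cell media replicate 3 alone. Irf9, the DNA-binding part of ISGF3, was at 5.02, 5.98 and 6.23 in cell media and at 7.85, 7.18 and 7.09 in HBSS. It was higher in every HBSS library as well, by less (log2 difference 0.32, SE 0.09, limma adjusted p = 0.0711, and 0.21, SE 0.08, against cell media replicate 3 alone). Stat2, its partner, was at 3.91, 4.07 and 5.29 and at 5.02, 6.15 and 6.29, and these groups overlapped at cell media replicate 3 and HBSS replicate 1.

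The sensors of viral RNA stood higher in all 3 HBSS libraries too. Ddx58, which encodes the sensor RIG-I, was at 3.45, 2.64 and 5.22 FPKM in cell media and at 6.58, 6.76 and 6.83 in HBSS (log2 difference 0.73, SE 0.15, limma adjusted p = 0.0711, and 0.31, SE 0.07, against cell media replicate 3 alone). Ifih1, which encodes the sensor MDA5 of long double-stranded RNA, was at 2.54, 2.32 and 4.71 and at 4.99, 4.77 and 4.73. Most of its distance came from cell media replicates 1 and 2: against replicate 3 alone the difference was 0.03 (SE 0.07). Dhx58, which encodes LGP2, a relative without the signalling domain, was at 8.66, 9.76 and 9.08 and at 11.2, 12.1 and 11.2, with 0.31 (SE 0.09) against replicate 3 alone. Ddx60, below the limit for testing, stood at 0.267, 0.221 and 0.816 FPKM in cell media and at 0.855, 0.689 and 0.700 in HBSS, so that the groups overlapped.

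The antiviral effectors followed the same direction. Ifit1 and Ifit2 encode proteins that bind viral RNA and block its translation. Ifit2 was at 1.53, 1.92 and 3.11 FPKM in cell media and at 3.57, 4.12 and 4.03 in HBSS (log2 difference 0.65, SE 0.15, limma adjusted p = 0.0711, and 0.26, SE 0.11, against cell media replicate 3 alone). Ifit1, whose 2 matches are printed above, was far lower, at 0.311, 0.532 and 0.778 against 0.791, 0.928 and 1.13. Ifit3, not tested, was at 0.0632, 0.194 and 0.226 against 0.589, 0.807 and 0.749, a group apart on few reads. Eif2ak2, the kinase PKR that stops translation on double-stranded RNA, was at 10.96, 12.2 and 21.3 against 26.2, 29.99 and 30.1 (log2 difference 0.97, SE 0.19, and 0.41, SE 0.10, against cell media replicate 3 alone).

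The genes of the ISG15 pathway differed widely in size. Usp18, the protease that removes ISG15 and damps the receptor, stood at 3.08, 5.09 and 5.32 FPKM in cell media and at 8.86, 9.48 and 8.70 in HBSS (log2 difference 0.89, SE 0.15, limma adjusted p = 0.0711, and 0.66, SE 0.12, against cell media replicate 3 alone). Isg15 itself was at 4.94, 5.15 and 5.11 against 5.71, 5.80 and 6.22, which do not overlap but lie close (log2 difference 0.19, SE 0.10, limma adjusted p = 0.185, and 0.18, SE 0.15, against cell media replicate 3 alone). Trim30a, a member of the TRIM family with several close copies in the mouse, was at 6.02, 8.14 and 13.4 against 18.3, 22.9 and 22.8 (log2 difference 1.19, SE 0.21, and 0.63, SE 0.14, against cell media replicate 3 alone). Trim25, a ubiquitin ligase that acts on RIG-I, was at 42.1, 37.6 and 51.0 against 52.8, 47.9 and 51.1, and these overlapped.

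Ifi44, an interferon-induced protein of the cytoplasm, was the member called. It stood at 1.22, 1.37 and 2.55 FPKM in cell media and at 4.86, 5.00 and 5.13 in HBSS (log2 difference 1.18, SE 0.15, limma adjusted p = 0.0482, and 0.76, SE 0.09, limma adjusted p = 0.194 against cell media replicate 3 alone). The call ended without any 1 of the 3 cell media or HBSS libraries other than cell media replicate 3, and without any 1 HOCl library, with a range of limma adjusted p from 1.23e-06 to 0.278 over all alternatives. Rtp4, a receptor-transporting protein, was at 0.853, 0.716 and 0.716 against 1.62, 2.31 and 1.60. Its cell media libraries lay together, as those of Irf7 did (log2 difference 0.68, SE 0.11, limma adjusted p = 0.0708, and 0.72, SE 0.15, against cell media replicate 3 alone). Helz2, a nuclear receptor coactivator helicase, was at 6.19, 6.40 and 13.2 against 17.4, 16.3 and 18.3 (log2 difference 1.01, SE 0.22, and 0.37, SE 0.13, against cell media replicate 3 alone). The p200 gene Ifi203 was at 7.199, 5.41 and 8.63 against 10.9, 9.71 and 9.65, and Sp100, of the nuclear bodies, at 5.05, 4.48 and 7.32 against 8.395, 8.20 and 8.16. Their log2 differences were 0.47 (SE 0.12) and 0.51 (SE 0.13), and 0.20 (SE 0.07) and 0.15 (SE 0.06) against cell media replicate 3 alone.

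Of the 35, 2 were lower in HBSS in the mean of 3 (38.8% of all genes were), and they were among the 3 with the highest levels. Bst2 stood at 241, 244 and 145 FPKM in cell media against 168, 187 and 175 in HBSS, and Ifi27l2a at 152, 154 and 62.7 against 87.0, 99.4 and 86.4. In both, cell media replicates 1 and 2 lay above every HBSS library and replicate 3 below every one. The log2 difference of Bst2 was -0.21 (SE 0.17), which was 0.032 with quantile normalization, and that of Ifi27l2a was -0.32 (SE 0.27). Against replicate 3 alone they were 0.28 and 0.53. Ly6e was at 69.2, 78.8 and 53.8 against 66.7, 82.4 and 82.1, and overlapped (log2 difference 0.20, SE 0.16, and 0.50, SE 0.17, against cell media replicate 3 alone).

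The remaining members were apart in the same direction with 2 exceptions. Adar, the enzyme that edits adenosine in double-stranded RNA, was at 6.24, 6.44 and 9.005 FPKM in cell media against 10.1, 10.3 and 11.3 in HBSS. Of the ADP-ribosylation genes, Parp9 was at 3.26, 3.59 and 5.53 against 7.46, 8.07 and 7.85. Parp14 was at 2.87, 2.61 and 5.44 against 6.34, 7.05 and 7.44. Dtx3l, the ubiquitin ligase that pairs with PARP9, was at 3.47, 2.91 and 4.91 against 5.15, 4.96 and 5.29. Of the nucleotide enzymes, Samhd1, which degrades the building blocks of DNA, was at 20.3, 19.5 and 24.0 against 24.4, 27.7 and 27.98, so that its cell media replicate 3 lay close under HBSS. Xaf1, a protein that favours cell death, was at 1.08, 1.81 and 1.99 against 4.02, 3.41 and 3.40. Cmpk2, Rsad2, Lgals3bp, Ifi204, Phf11d and Nmi were apart in the same direction, with log2 differences from 0.50 to 0.89, and from 0.23 to 0.57 against cell media replicate 3 alone. The exceptions were Herc6, whose cell media replicate 3 at 2.42 lay within the HBSS range, and Ifi35, at 15.6, 18.9 and 10.5 against 13.0, 16.6 and 15.4 (log2 difference 0.03, SE 0.18, and 0.47, SE 0.145, against cell media replicate 3 alone).

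Set against cell media replicate 3 alone, which did not stand apart, the pattern was smaller and of the same direction. With replicate spread estimated in the HBSS and HOCl groups, 34 of the 35 members were higher in HBSS, against 45.8% of all genes. Trim25 was the exception at -0.01. The median log2 difference was 0.31 against -0.014 over all genes. Replicate 3 lay below all 3 HBSS libraries in 32 members, where 25.6% of genes did, and below all 9 libraries in HBSS, with or without HOCl, in 25 members, where 17.5% did. Limma on these 10 libraries called 0 of the 35 and 0 of 12026 genes (smallest adjusted p = 0.194, for Ifi44), with 25 members at an unadjusted p below 0.05, against 6.84% of genes. In 24 members replicate 3 lay between the 2 other cell media libraries below it and the HBSS libraries above it, which 11.1% of genes did. The values of replicate 3 are those of 1 library, and the part that the state of cell media replicates 1 and 2 has in the size of the difference was not tested.

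Across all 9 libraries in HBSS many members lay above cell media. In 20 of the 35, including Irf7, Ddx58, Usp18, Ifi44, Rtp4 and Xaf1, every one of the 9 lay above every cell media library, which 7.34% of genes did, and in 0 did all 9 lie below, which 3.87% did. The mean at 100 µM was above that of cell media in 32 of the 35, with Trim25, Bst2 and Ifi27l2a as the exceptions. It was above cell media replicate 3 alone in 26 of the 35, and not in Irf9, Stat2, Ifih1, Herc6, Trim25, Dtx3l, Ifi203, Sp100 and Helz2. For these counts of the mean at 100 µM no share over all genes was computed.

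**Figure D2:**
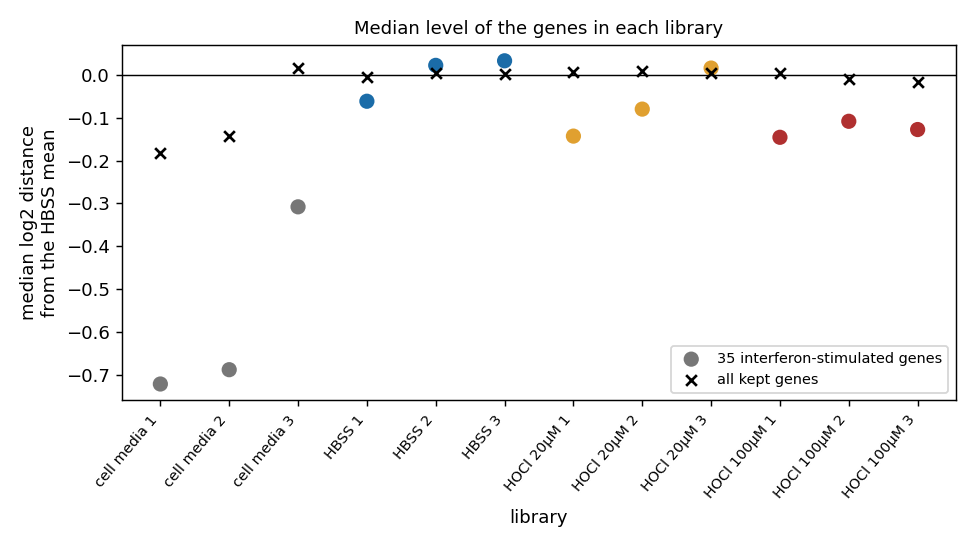
Median over the 35 genes (circles, coloured by group) and over all kept genes (crosses) of log2(FPKM + 1) minus the HBSS mean, for each of the 12 libraries. The genes lie at -0.72, -0.69 and -0.31 in the cell media libraries and between -0.15 and -0.11 in the 100 µM libraries, while all genes lie near 0 except in cell media replicates 1 and 2.

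The comparison of HOCl 100µM with HBSS asks what the higher dose did to the members relative to the vehicle. Members stood slightly lower at 100 µM: 28 of the 35 were lower, against 51.5% of all genes, with a median log2 difference of -0.14, against -0.0063 over all genes. In 16 of the 35 every 100 µM library lay below every HBSS library, which 17.6% of all genes did, and in 0 above, which 16.5% did. With all 12 libraries limma called 0 of the 35 and 0 of 12026 genes (0%), and 6 members had an unadjusted p below 0.05, against 7.76% of genes. That fit takes its spread from all groups, cell media replicates 1 and 2 included. On the 10 libraries without them limma called 2 members, Ifi44 and Ifi203, both lower, against 0.241% of all genes (0.133% lower), with 13 members at an unadjusted p below 0.05, against 32.2%. The macrophage marker sum, mostly Lyz2, was higher in the 100 µM libraries, and its part in these differences was not tested.

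Irf7 and Irf9 stood lower in each 100 µM library. Irf7 was at 7.46, 8.499 and 7.57 FPKM in HBSS and at 5.86, 6.18 and 6.15 at 100 µM (log2 difference -0.32, SE 0.10, limma adjusted p = 0.602 on 12 libraries and 0.0898 on 10). All 3 of the latter stayed above the 4.69 FPKM of the highest cell media library. Irf9 was at 7.85, 7.18 and 7.09 against 6.60, 6.18 and 5.86 (log2 difference -0.21, SE 0.09). Stat2 was at 5.02, 6.15 and 6.29 against 5.77, 4.96 and 4.68, and the groups overlapped.

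All 3 tested RNA sensors lay lower without overlap. Ddx58 was at 6.58, 6.76 and 6.83 FPKM in HBSS and at 5.53, 5.72 and 5.49 at 100 µM (log2 difference -0.23, SE 0.15, limma adjusted p = 0.671 on 12 libraries and 0.0611 on 10). Ifih1 was at 4.99, 4.77 and 4.73 against 4.56, 4.54 and 4.15, a smaller distance (log2 difference -0.11, SE 0.16). Dhx58 was at 11.2, 12.1 and 11.2 against 9.70, 10.6 and 10.4 (log2 difference -0.15, SE 0.08).

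The largest distances were in Helz2, Ifi44 and Ifi203. Helz2 stood at 17.4, 16.3 and 18.3 FPKM in HBSS and at 13.9, 11.2 and 10.6 at 100 µM (log2 difference -0.52, SE 0.22, limma adjusted p = 0.633 on 12 libraries and 0.0514 on 10). Ifi44 was at 4.86, 5.00 and 5.13 against 3.05, 3.49 and 3.49 (log2 difference -0.47, SE 0.15, limma adjusted p = 0.602 on 12 libraries and 0.0463 on 10). Ifi203 was at 10.9, 9.71 and 9.65 against 7.81, 7.63 and 7.71 (log2 difference -0.34, SE 0.12, limma adjusted p = 0.625 on 12 libraries and 0.0484 on 10). The last gene belongs to a cluster of near copies, so its reads are less certainly its own. Over all alternatives the limma adjusted p ran from 0.00256 to 0.968 for Ifi44 and from 0.00548 to 0.968 for Ifi203. Sp100 was at 8.395, 8.20 and 8.16 against 6.90, 7.13 and 6.51, and Trim25 at 52.8, 47.9 and 51.1 against 46.7, 41.3 and 40.5, neither overlapping (log2 difference -0.24 for each, SE 0.13 and 0.11).

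For 4 well-known effectors, Ifit1, Isg15, Ifit2 and Rsad2, the HBSS and 100 µM libraries overlapped. Ifit1 was at 0.791, 0.928 and 1.13 FPKM in HBSS and at 1.10, 1.38 and 1.02 at 100 µM (log2 difference 0.15, 95% interval -0.16 to 0.47). Isg15 was at 5.71, 5.80 and 6.22 against 5.90, 7.70 and 6.22 (log2 difference 0.13, 95% interval -0.10 to 0.36). Ifit2 was at 3.57, 4.12 and 4.03 against 3.52, 3.91 and 3.97 (log2 difference -0.03, 95% interval -0.36 to 0.30, and 0.014 with quantile normalization). Rsad2, which encodes viperin, an enzyme that makes a chain-ending nucleotide, was at 3.55, 3.67 and 4.06 against 3.85, 4.64 and 3.40. The 7 members that were higher in the mean at 100 µM, as 48.5% of all genes were, were Cmpk2, Ifi35, Ifit1, Isg15, Ly6e, Phf11d and Rsad2. Of these, Ly6e had a difference of 0.05, which was -0.030 with quantile normalization.

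The 3 most abundant members overlapped or lay close. Bst2 was at 168, 187 and 175 FPKM in HBSS and at 155, 168 and 184 at 100 µM (log2 difference -0.06, 95% interval -0.45 to 0.32). Ly6e was at 66.7, 82.4 and 82.1 against 68.0, 84.6 and 87.6. Ifi27l2a was at 87.0, 99.4 and 86.4 against 75.2, 82.4 and 84.7, without overlap (log2 difference -0.17, SE 0.27).

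Among the remaining members Parp14 stood at 6.34, 7.05 and 7.44 FPKM in HBSS against 5.89, 5.85 and 5.33 at 100 µM, and Parp9, its relative, at 7.46, 8.07 and 7.85 against 7.52, 7.97 and 7.27. The first pair of groups was apart and the second overlapped. Adar, Dtx3l, Usp18 and Xaf1 were also apart below HBSS, with log2 differences from -0.22 to -0.13. Trim30a, Eif2ak2, Herc6, Rtp4, Lgals3bp, Samhd1, Ifi204 and Nmi were lower in the mean and overlapped.

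**Figure D3:**
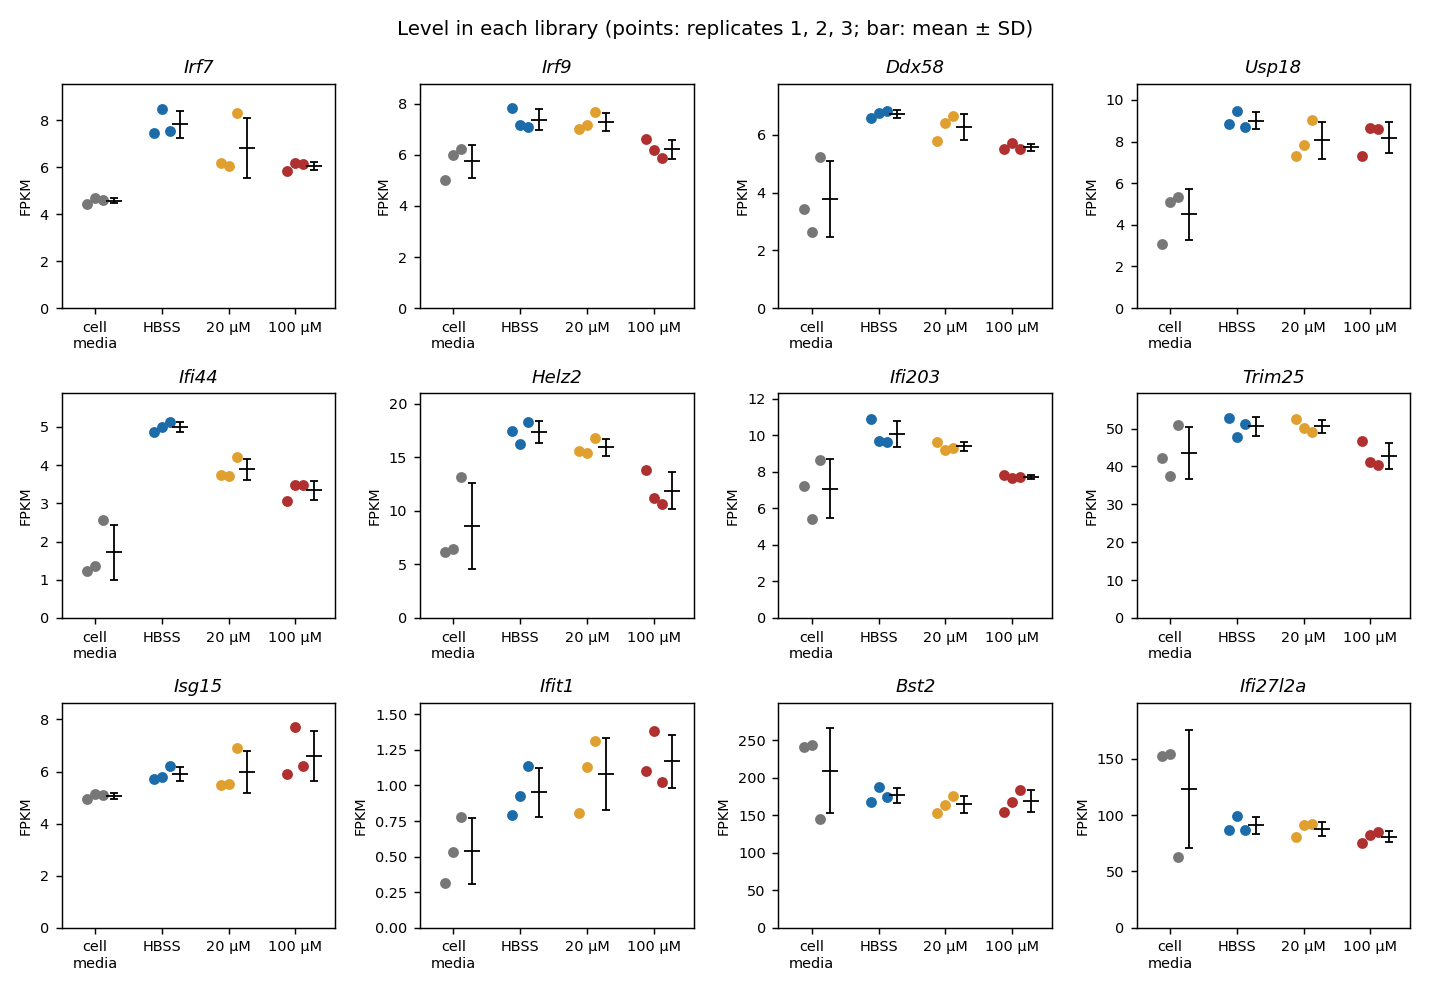
FPKM of 12 of the genes in each library (points are replicates 1, 2 and 3 from left to right, bars are mean ± SD, n = 3), on axes that start at 0. The means of Irf7, Ddx58, Ifi44 and Helz2 are lowest in cell media, highest in HBSS and lower again at 100 µM. Cell media replicate 3 of Helz2, at 13.2 FPKM, lies above its mean of 11.9 at 100 µM. Isg15 and Ifit1 show no such step down, and Bst2 and Ifi27l2a are split within cell media.

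By role, the median log2 differences at 100 µM ran from -0.24 for the p200 and nuclear proteins (Ifi203, Ifi204, Sp100, Phf11d and Helz2) and -0.21 for the factors Irf7, Irf9 and Stat2 to 0.018 for the nucleotide enzymes Rsad2, Cmpk2 and Samhd1. In the comparison of HBSS with cell media the same 3 roles had medians of 0.78, 0.34 and 0.61, and of 0.37, 0.21 and 0.23 against cell media replicate 3 alone. Both comparisons use the 3 HBSS libraries, so a high HBSS value lowers the difference at 100 µM and raises that from cell media, and the values are given side by side only.

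**Figure D4:**
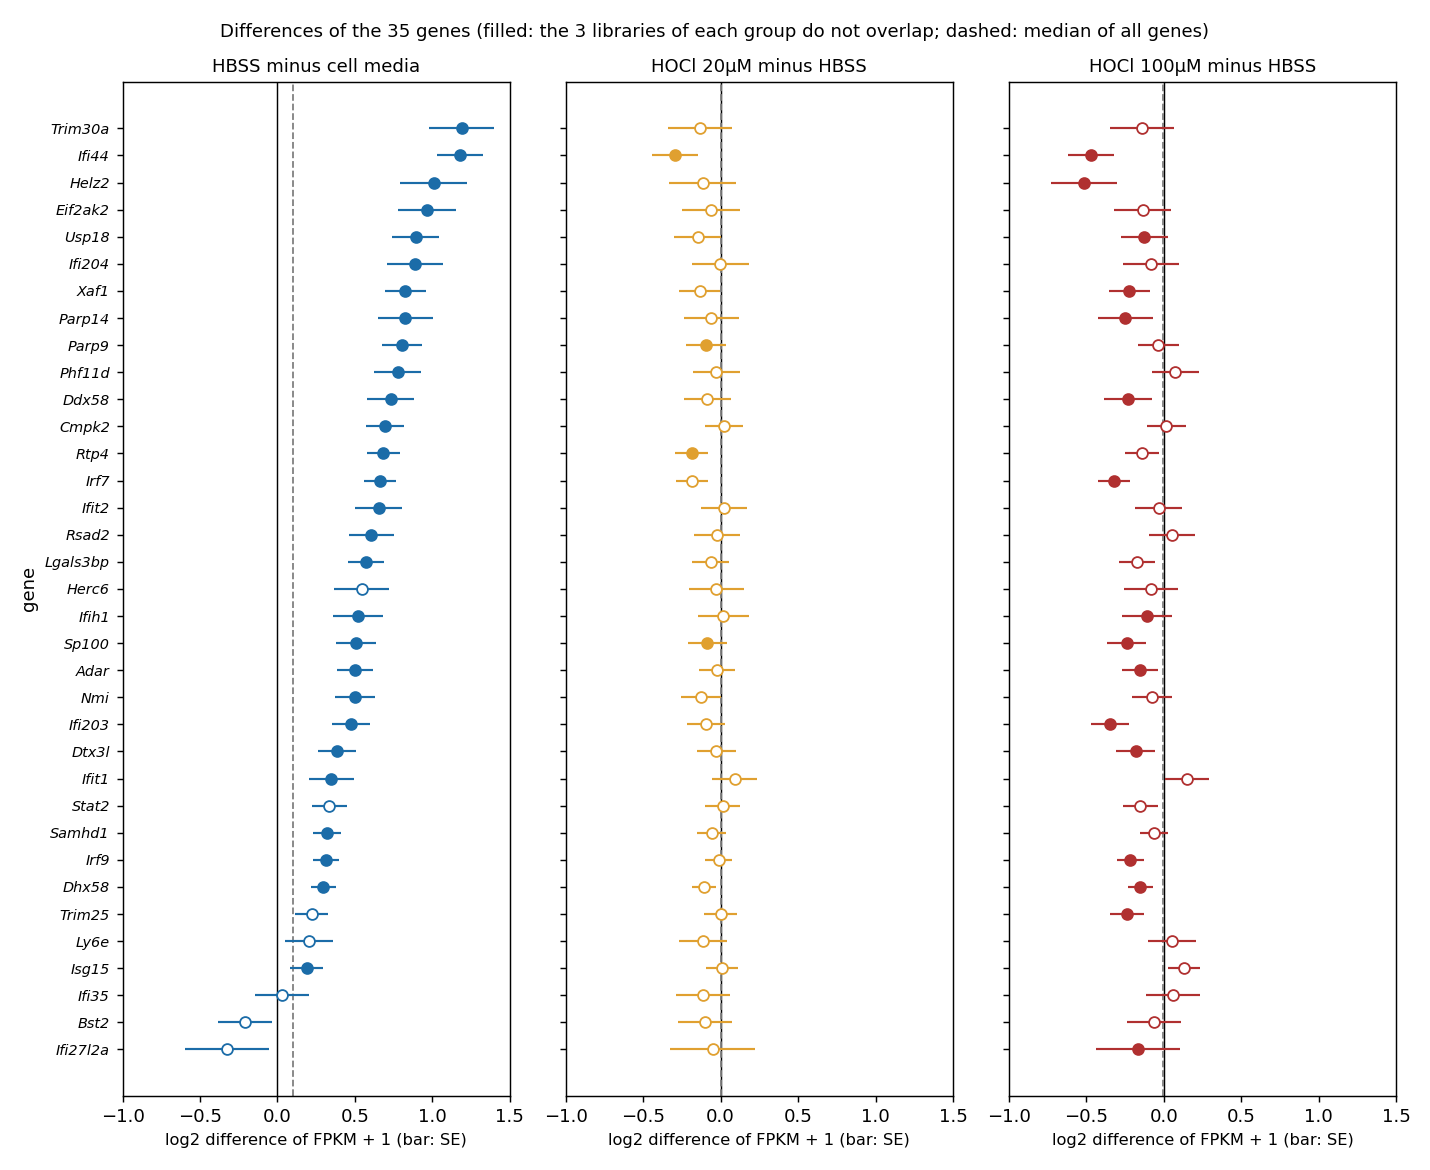
Log2 difference of FPKM + 1 with its limma standard error for the 35 genes (rows) in HBSS against cell media (left), HOCl 20µM against HBSS (middle) and HOCl 100µM against HBSS (right). Filled points mark groups of 3 that do not overlap (28, 4 and 16 genes), the dashed line is the median of all genes, and the signs of Bst2 (left) and of Ifit2 and Ly6e (right) turn with quantile normalization.

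HOCl 20µM was set against HBSS to see whether the lower dose moved the members. They stood near their HBSS levels: 28 of the 35 were lower, against 46.1% of all genes, and 7 higher, against 53.9%, by a median log2 difference of -0.063, against 0.0057. In 4 members, Ifi44, Parp9, Rtp4 and Sp100, every 20 µM library lay below every HBSS library, which 3.48% of all genes did. Limma called 0 members and 0% of genes on 12 libraries, with 0 members at an unadjusted p below 0.05 against 1.08% of genes, and 0 and 0% on 10 libraries, with 1 against 3.08%. The 95% intervals of the members reached from -0.65 to 0.55. Ifi44 had the smallest p, at 3.75, 3.71 and 4.21 FPKM at 20 µM against 4.86, 5.00 and 5.13 (log2 difference -0.30, SE 0.15). Irf7 was at 6.17, 6.04 and 8.30 against 7.46, 8.499 and 7.57, so that its replicate 3 lay within the HBSS range and the other 2 below it. Rtp4 was at 1.42, 1.495 and 1.54 against 1.62, 2.31 and 1.60. Irf9 was at 7.03, 7.18 and 7.69, Ddx58 at 5.78, 6.41 and 6.65, and Ifit2 at 3.56, 4.18 and 4.22. Irf9 and Ifit2 overlapped with HBSS, and Ddx58 replicates 1 and 2 lay below its HBSS values.

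HOCl 20µM replicate 3 held the highest of its group's 3 values in 29 of the 35 members, against 40.2% of all genes, and replicate 1 the lowest in 23. The median member of replicate 3 lay 0.015 above the HBSS mean and those of replicates 1 and 2 at -0.14 and -0.080. Without replicate 3, 12 members in place of 4 lay below HBSS without overlap, and 6.65% of all genes in place of 3.48%. HBSS was uneven as well: its replicate 1 held the lowest value in 23 members, against 41.4% of genes. Without it the count at 20 µM was also 12, against 10.4% of genes, and that at 100 µM was 24, against 22.9%.

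At 100 µM against 20 µM, 24 of the 35 members were lower, against 53.8% of all genes, and 11 higher, against 46.2%, with a median log2 difference of -0.074, against -0.017. In 10 members every 100 µM library lay below every 20 µM library, which 15.6% of all genes did: Ddx58, Dtx3l, Helz2, Ifi203, Ifi44, Ifih1, Irf9, Parp14, Sp100 and Trim25. Without HOCl 20µM replicate 3 the median was -0.019, against -0.014 over all genes. There 10 members were apart below, against 29.2% of genes, and 3 apart above, as 2969 of 12026 genes were. The median was -0.12 without replicate 1 of HOCl 20µM (17 members apart below, against 18.5% of genes) and -0.035 with quantile normalization. Limma called 0 members and 0% of genes on 12 and on 10 libraries, with 2 members at an unadjusted p below 0.05 against 4% of genes on 12, and 10 against 26.2% on 10. The 3 members with the smallest p were Irf9, Trim25 and Ifi203. Irf9 was at 7.03, 7.18 and 7.69 FPKM at 20 µM against 6.60, 6.18 and 5.86 (log2 difference -0.20, SE 0.09). Trim25 was at 52.5, 50.2 and 49.1 against 46.7, 41.3 and 40.5 (-0.24, SE 0.11), and Ifi203 at 9.65, 9.22 and 9.30 against 7.81, 7.63 and 7.71 (-0.25, SE 0.12).

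Over HBSS, 20 µM and 100 µM, the group means stepped down in 19 of the 35 members, against 26% of all genes, and up in 2, Ifit1 and Isg15, against 26.1%. Those stepping down included Irf7, Irf9, Ddx58, Dhx58, Helz2, Ifi44, Ifi203, Sp100 and Xaf1. Many of these steps were smaller than the spread between replicates, as in Irf9 between HBSS and 20 µM. The means of Ifi44 were 5.00 ± 0.135, 3.89 ± 0.28 and 3.34 ± 0.25 FPKM (SD, n = 3) over the 3 groups, each step larger than the SD beside it.

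Genes that act upstream of the members were taken from lists. Ifnb1, the interferon-beta gene, was listed at 0 in 8 of the 12 libraries and at most at 0.197 FPKM. Of 17 genes of interferon receptors and signalling, 16 were kept and 0 were called in any of the 4 comparisons by limma, with a median log2 difference of 0.10 for HBSS against cell media, the same as that of all genes (0.016 against cell media replicate 3 alone, where that of all genes was -0.014), and -0.026 at 100 µM against HBSS. Ifnar1, a receptor chain, stood at 9.71, 9.01 and 15.3 FPKM in cell media, 14.0, 14.5 and 14.1 in HBSS and 13.6, 12.7 and 12.7 at 100 µM, and Ifnar2, the other chain, at 18.9, 17.6 and 19.4, then 17.2, 17.4 and 15.3, then 16.9, 15.9 and 17.3. Irf1, a factor of the IRF family, was at 2.40, 2.56 and 2.22 in cell media, then 2.30, 2.54 and 2.63, then 2.03, 2.82 and 2.05, overlapping throughout.

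Of 21 genes for sensing nucleic acids and inducing interferon, 19 were kept, with 0 called in any comparison by limma and medians of 0.19 for HBSS against cell media (-0.018 against cell media replicate 3 alone) and -0.066 at 100 µM. Irf3, the factor that starts interferon transcription, was at 15.5, 17.2 and 11.4 FPKM in cell media, 10.4, 11.9 and 11.5 in HBSS and 11.2, 11.5 and 11.1 at 100 µM. Cgas, the sensor of cytosolic DNA, was at 8.41, 8.14 and 11.99, then 12.6, 13.0 and 13.5, then 11.6, 11.4 and 9.85, so that HBSS lay above those groups without overlap.

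Of 61 other interferon-stimulated genes that are not members, 47 were kept. In HBSS against cell media 37 of the 47 were higher, against 61.2% of all genes. Of the 47, 22 were apart above cell media, against 12.7% of genes, and 1 apart below, against 8.91%. The median log2 difference was 0.34 (0.16 against cell media replicate 3 alone), and limma called 0, against 0.0166% of genes. At 100 µM against HBSS 28 were lower, against 51.5% of genes. Here 13 were apart below, against 17.6%, and 4 apart above, against 16.5%. The median was -0.045, and limma called 0, against 0% of genes. Trim56, a ubiquitin ligase, stood at 3.90, 3.64 and 6.81 FPKM in cell media, 6.78, 6.28 and 6.91 in HBSS and 5.33, 4.74 and 4.58 at 100 µM. Mndal, a p200 gene, was at 3.16, 3.48 and 5.10, then 6.09, 5.11 and 6.002, then 4.59, 4.96 and 3.73. Both were highest in HBSS in the mean, and at 100 µM neither overlapped with HBSS. Cxcl10, an interferon-induced chemokine, was higher in each 100 µM library, at 1.35, 1.92 and 1.23 in HBSS against 2.05, 2.23 and 2.13 (log2 difference 0.34, SE 0.13, limma adjusted p = 0.627). Of the OAS genes, Oas2, which makes the activator of RNase L, was at 1.2505, 1.30 and 3.03 in cell media, 4.84, 5.35 and 5.60 in HBSS and 3.15, 3.22 and 2.78 at 100 µM, an order of groups like that of Ifi44. Oas1g was at 19.4, 23.1 and 23.8, then 24.4, 27.1 and 26.2, then 20.8, 17.8 and 18.1.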

How the data were processed

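Libraries of mRNA from J774A.1 cells were sequenced by the authors. The deposited table holds FPKM values of 28977 gene IDs in 12 libraries. HISAT2, featureCounts and the GRCm39 build are named per the submitters' processing notes, and for their versions, settings and strand the entry is: not given in the sources used here. More than 1 sequencing instrument is labelled, with no word on which library ran where, so an instrument batch could not be examined.

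Symbols came from GENCODE M21 (28302 IDs matched) and promoter windows from RefSeq on GRCm38.p6, another build than that of the table, so neither was joined by coordinates. Reads per library were recovered from values below 1 FPKM multiplied by exon length, of which 98.26% were whole within 0.01. These reads served for depth and for the read numbers of the members below the limit for testing, and for no test. Genes at 1 FPKM or more in at least 3 libraries were kept (12026). Differences were tested on log2(FPKM + 1) with limma 3.58.1 in R 4.3.3, all 12 libraries in 1 model with 1 mean per group and a mean-variance trend, two-sided, and a call needed p below 0.05 after Benjamini-Hochberg adjustment over all kept genes. With 3 against 3, a permutation test of 1 value could not pass, so none was used. The members, lists and alternatives were chosen with earlier results of these data known. Values of single libraries are given for Irf7, Irf9, Stat2, the RNA sensors, Ifit1 to Ifit3 and Ifi44. They are also given for the 8 members with the smallest p and the 3 with the highest mean at 100 µM against HBSS. The same holds for up to 3 members with the smallest p in the other comparisons. Not every one of these genes has its values printed for all groups. Values of the other members (Usp18, Isg15, Trim30a, Eif2ak2, Rsad2, Adar, Parp9, Parp14, Dtx3l, Samhd1, Xaf1, Ifi35 and Ddx60) were added after their values were seen. Non-members named were fixed or had the smallest p in their lists. Near-identical copies (Trim30, p200, Ifit) may share reads. Plots were made with matplotlib 3.10.9.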

Additional observations from a re-analysis of the deposited data

How the results depend on the processing

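Replicate numbers were not shown to pair the samples in all comparisons. Same-numbered libraries of 100 µM and HBSS correlated in their deviations at -0.025 to 0.26, those of 20 µM and HBSS at -0.062 to 0.35. Between the doses the range was 0.055 to 0.41, and between HBSS and cell media it was -0.026 to 0.35. Each 100 µM library correlated best with the 20 µM library of its own number. In the other comparisons not every library correlated best with its own number. With a replicate block, limma called 193 of 12026 genes and 15 of 35 members in HBSS against cell media. In the other comparisons it called 0 of either. With the block and 10 libraries it called 2979 of 12026 genes and 10 of 35 members at 100 µM. Between the doses it called 2088 genes and 4 members, 3 lower and 1 higher, a smaller share of members than of genes. The median member with the block, added after seeing the data, was 0.35 in HBSS against cell media on 10 libraries, in place of 0.31 without it, and did not move in the other comparisons or on 12 libraries.

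At 100 µM against HBSS the genes and members called were 29 and 2 on the 10 libraries and on the 9 libraries without cell media, 3401 and 12 with library weights (whose estimate stopped before convergence), 1 gene without a filter and 2 with only the 2 groups. At 20 µM they were 6 genes without a filter, and 158 and 2 with weights. Between the doses they were 11 genes without a filter, 6084 and 16 with weights, and 1 gene with only the 2 groups. The 16 members were a smaller share of the 35 than the 6084 genes were of 12026. In HBSS against cell media the genes called were 5 without a filter and without a trend, 1 at a mean of at least 5 FPKM, 4 with quantile normalization, 7501 with weights, 0 on 10 libraries and 0 with only the 2 groups. The members called there were 0 with a pseudocount of 0.1, without a filter, at a mean of at least 5 FPKM, on 10 libraries and with only the 2 groups, 2 with quantile normalization and 32 with weights.

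The median of HBSS against cell media was 0.76 with a pseudocount of 0.1, 0.52 without a filter, 0.50 at a mean of at least 5 FPKM, 0.47 after scaling by median of ratios, 0.42 after quantile normalization and 0.31 on 10 libraries, and 18 members were apart at a mean of at least 5 FPKM, where fewer are tested (13.8% of genes). Between the doses it was -0.055, -0.092, -0.058 and -0.035 without a filter, at 5 FPKM, with median-of-ratios and with quantile normalization. At 20 µM, 2 members were apart at 5 FPKM (2.98% of genes) and 7 with quantile normalization (5.01%). The share of promoters with the motif was 33.3% before the start site (3.46% of all genes) and 53.3% with a motif 1 base shorter (9.76%), both within the interval of the main share.

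With 1 library left out, genes called ranged from 0 to 5 at 100 µM, 0 to 1 between the doses and 0 to 7852 in HBSS against cell media (7852 without cell media replicate 3), and members called there from 0 to 32. The medians ranged from -0.17 to -0.10, -0.096 to -0.037, -0.12 to -0.019 and 0.47 to 0.67, and the members apart from 16 to 24, 4 to 12, 10 to 17 and 28 to 31 at 100 µM, at 20 µM, between the doses and against cell media, beside 17.6% to 32.3%, 3.48% to 10.4%, 15.6% to 32.4% and 12.7% to 48.0% of all genes. Members stepping down by dose ranged from 17 to 21.

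Of 39 gene differences followed, 5 changed sign in 12 of 908 alternatives. At 100 µM these were Ifit2, 0.014 with quantile normalization (-0.083 to 0.010 with 1 library left out), and Ly6e, -0.030 with quantile normalization (-0.047 to 0.16). In HBSS against cell media they were Bst2 (0.032 with quantile normalization, 0.28 on 10 libraries and 0.35 with a block there), Ifi27l2a (0.53 and 0.55) and Trim25 (-0.012 and -0.046). The cause was not tested.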
